A study of Gossypium hirsutum with 120 samples.

Results

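The enzymes that carry nitrate into amino acids were followed in upland cotton (Gossypium hirsutum, line TM-1) over floral, bracteal, circumbracteal and foliar nectaries and the non-nectary tissue beside each. The members are the rows of a table of predicted cotton proteins whose best Arabidopsis match is 1 of 10 genes, namely AT1G37130 (NIA2), AT2G15620 (NIR1), AT5G37600 (GLN1;1), AT1G66200 (GLN1;2), AT3G17820 (GLN1;3), AT5G35630 (GLN2), AT5G04140 (GLU1), AT5G53460 (GLT1), AT3G47340 (ASN1) and AT5G65010 (ASN2). By this rule 26 of 49663 rows are members, and all 26 passed the filter on low values, with which 48846 rows were tested. Rows were found for 7 of the 10 matches, with 3 for NIA2, 1 for NIR1, 6 for GLN1;1, 4 for GLN2, 3 for GLU1, 2 for GLT1 and 7 for ASN1. No row has GLN1;2, GLN1;3 or ASN2 as its best match, so the rows named GLN1;1 may stand for cytosolic glutamine synthetases in general. Cotton is a tetraploid with near-identical gene pairs, and how reads that fit several copies were assigned is not given in the sources used here, so the split between rows of one match is uncertain.

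RNA from each nectary type and its adjacent tissue was sequenced before, during and after nectar secretion to find the genes that accompany nectar production. The 51 RNA samples of the table fall into 20 conditions. The floral nectary and its adjacent tissue were taken on the day before anthesis (pre-secretory, 2 and 3 RNA samples), at anthesis (secretory, 3 and 3) and on the day after (post-secretory, 3 and 3). The bracteal nectary and its adjacent tissue were taken at the match-head square stage (pre-secretory, 2 and 2) and from 19 to 24 days after anthesis (post-secretory, 3 and 3), and the circumbracteal nectary and its adjacent tissue at the same times with 3 RNA samples in each condition. The foliar nectary and its adjacent tissue came from leaves with a midvein of 5 to 6 cm (pre-secretory, 2 and 2), of 12 to 15 cm (secretory, 1 and 1) and from fully mature leaves without visible nectar (post-secretory, 3 and 3). All plants were of the one inbred line, with no treatment or mutant. Each RNA sample pooled several nectaries, and since nothing states that replicates came from separate plants, p-values measure the spread between these samples.

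Plants reduce nitrate to nitrite in the cytosol with nitrate reductase (NIA) and nitrite to ammonium in the plastid with nitrite reductase (NIR). Glutamine synthetase binds ammonium to glutamate, as a cytosolic enzyme (GS1, the GLN1 genes) that is typical of vascular and non-green tissue and as a plastid enzyme (GS2, the GLN2 gene) that in leaves mainly recovers the ammonium of photorespiration. Glutamate synthase (GOGAT) passes the amide nitrogen of glutamine to 2-oxoglutarate, with ferredoxin as the electron donor in green tissue (GLU1) or with NADH in other tissue (GLT1), and asparagine synthetase (ASN) moves it to aspartate. Asparagine is a nitrogen store and transport form, and in Arabidopsis ASN1 is known as a gene of darkness and sugar shortage. Nectar is phloem-fed, rich in sugar and holds free amino acids.

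Values are the deposited ones, summed over the 2 sequencing runs of an RNA sample and scaled to a common upper quartile. In 7447 of the 33879 rows with enough low values they fall mostly on a step of the row's own. They were not handled as read numbers, and they are called normalized values. Levels of different rows are therefore ordered only by these values. The deposited values summed to 7489375 to 16203450 per RNA sample, with a median of 10187922. The nectary markers CRABS CLAW, SWEET9 and CWINV4 summed to 13910.0 to 22690.0 in the secretory floral nectary, against 1512 to 2658 in its adjacent tissue. CRABS CLAW reached at most 149.4 and SWEET9 at most 377.9 in any RNA sample, so most of these floral sums is CWINV4. Nectary and adjacent tissue did not overlap in this sum in any type or stage. Secretory floral nectary replicate 3 stood apart. Its log2 values correlated at 0.865 and 0.854 with replicates 1 and 2, which correlated at 0.924 with each other, and their median with its own group (0.859) was below that with the post-secretory floral nectary (0.869). Of 49 RNA samples with a partner in their group, 15 were closer to another group. Fewer cells of a type and less RNA per cell cannot be told apart in these dissected tissues.

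Relative to adjacent tissue, member rows were called in the floral, circumbracteal and foliar nectaries, and the highest count was that of the secretory floral nectary, a stage tested in no other type. A row was called at an adjusted p under 0.05 (limma, Benjamini-Hochberg over all 48846 rows) with a change of at least 1.5-fold. Groups are described as apart, or without overlap, where every sample of a group lies above every sample of the other. With 2 or 3 samples per group this can arise by chance, and its share over all rows is not given here. In the pre-secretory floral nectary 4 member rows were higher and 2 lower, where 3.67% of all rows were called higher and 4.32% lower, 7.99% together. In the secretory floral nectary 6 were higher and 3 lower, where 3.05% of all rows were called higher and 5.35% lower, 8.39% together, and in the post-secretory one 3 were higher and none was lower (all rows: 1.77% higher, 2.03% lower, 3.8% together). The 9 secretory calls became 3 without nectary replicates 1 and 2, 14 without nectary replicate 3, 4 without adjacent tissue replicates 2 and 3, and the 3 post-secretory calls became 1 without adjacent tissue replicate 1. Of the calls in these 3 comparisons, 3, 3 and 1 held whichever single RNA sample was left out.

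The circumbracteal nectary had as many calls as the floral one before secretion and more after it, and 6 of the 7 after it were falls. At the pre-secretory stage 3 rows were higher and 3 lower in the circumbracteal nectary, where 1.15% of all rows were called higher and 6.01% lower, 7.16% together, and at the post-secretory stage 1 was higher and 6 were lower (all rows: 1.61% higher, 4.8% lower, 6.4% together). The median of all tested rows was itself -0.27 and -0.26 on the log2 scale in these 2 comparisons, against -0.29 and -0.75 for the member rows. In the foliar nectary 2 rows were higher before secretion (all rows: 0.586% higher, 0.102% lower, 0.688% together) and 1 after it (all rows: 1.18% higher, 0.835% lower, 2.01% together). The circumbracteal counts of 6 and 7 became 2 without nectary replicate 3 before secretion and 4 without nectary replicate 1, 2 without nectary replicate 2 or adjacent tissue replicate 3 after it, and the foliar counts of 2 and 1 became 1 without nectary replicates 1 and 2 or adjacent tissue replicates 1 and 3 before secretion and 0 without nectary replicates 2 and 3 or adjacent tissue replicates 1 and 3 after it. In the bracteal nectary limma called no member row at either stage. Before secretion 0.0389% of all rows were called higher and 0.0225% lower, 0.0614% together, and after it 1.28% of all rows were called higher and 1.24% lower, 2.52% together. With replicate number as a block the pre-secretory bracteal nectary had 1 member row called higher, GLN1;1 XP_016696747.1 (log2 change 3.105), where 130 of 48846 rows were called. With the block the post-secretory bracteal nectary had 4 member rows called, where 2265 of 48846 rows were called. These were GLN1;1 XP_016679913.1 (1.15) and XP_016745991.1 (1.30) and NIA2 XP_016707751.1 (1.95), which were higher, and GLN2 XP_016723238.1 (-2.81), which was lower (log2 change).

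These calls take the spread from all 20 conditions. In the floral nectary with both groups fitted alone 3.58% of all rows were called, and 1 of the 6 member calls stayed, that of NIA2 XP_016707751.1 before secretion. At anthesis with both groups fitted alone 5.49% of all rows were called, and 4 of the 9 member calls stayed, those of GLN1;1 XP_016679913.1, GLN1;1 XP_016745991.1, ASN1 XP_016668862.1 and ASN1 XP_016689170.1. On the day after with both groups fitted alone 3.61% of all rows were called, and none of the 3 member calls stayed. In the circumbracteal nectary with both groups fitted alone no row of the table was called before secretion, and after it 0.71% of all rows were called and 1 of the 7 member calls stayed, that of GLN2 XP_016747994.1. In the foliar nectary no row of the table was called before secretion, and after it 1.74% of all rows were called and the 1 member call was lost. A count of 0 among the members in a fit that called no row says nothing about the members.

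**Figure D1:**
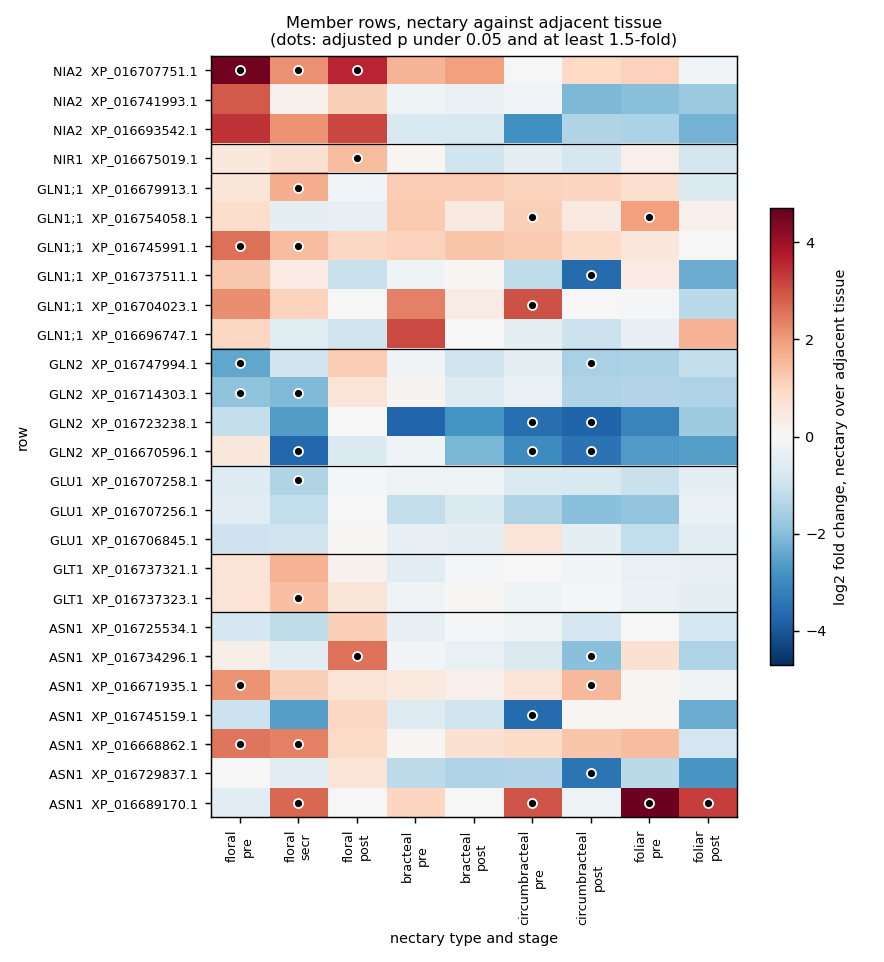
Log2 change of each of the 26 member rows in the nectary relative to the adjacent tissue, with member rows down the page grouped by Arabidopsis match and the 9 comparisons across it. Marked cells were called, and no cell of the bracteal nectary is marked.

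Of nitrate reductase, 1 row was called higher in the floral nectary than in the tissue beside it at all 3 stages. The sum of the 3 NIA2 rows was apart before secretion (163.6 to 212.7 in the nectary, against 6.0 to 11.2). It overlapped at anthesis (164.6 to 589.4, against 28.6 to 401.9) and on the day after (58.6 to 412.2, against 3.8 to 63.3). NIA2 XP_016707751.1 (LOC107922292), the most abundant of the 3 NIA2 rows, had normalized values of 138 and 151 in the pre-secretory floral nectary, against 7.30, 5.58 and 3.45 in the adjacent tissue. The values were 379.5, 157 and 133 in the secretory floral nectary, against 109.9, 36.2 and 21.5 in the adjacent tissue. They were 83.8, 47.9 and 33.5 in the post-secretory floral nectary, against 7.92, 8.63 and 0 in the adjacent tissue. Nectary and adjacent tissue were apart at each of these stages, with the one 0 of the row in post-secretory adjacent tissue. The row was called at the pre-secretory stage (log2 change 4.54 ± 0.74 SE, adjusted p = 4.84e-05), at the secretory stage (log2 change 2.14 ± 0.66 SE, adjusted p = 0.0343, lost with both groups fitted alone) and at the post-secretory stage (log2 change 3.57 ± 0.66 SE, adjusted p = 0.000596, lost with both groups fitted alone). The secretory call was lost without nectary replicates 1 (1.68) and 2 (2.32) or adjacent tissue replicates 2 (2.00) and 3 (1.64), and moved without adjacent tissue replicate 1 (2.79). The post-secretory value moved without adjacent tissue replicate 3 (2.50).

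In extrafloral tissue NIA2 XP_016707751.1 was not called against adjacent tissue at the main settings. With replicate number as a block it was called in the post-secretory bracteal nectary, and so it was with a pseudocount of 10 or without nectary replicate 1. The normalized values were 494 and 421 in the pre-secretory bracteal nectary, against 141 and 158 in the adjacent tissue. They were 168, 1077 and 423 in the post-secretory bracteal nectary, against 39.7, 185 and 177 in the adjacent tissue. The bracteal nectary was above its adjacent tissue in both samples before secretion, whereas after it replicate 1 fell among the values of the adjacent tissue (log2 change 1.95 ± 0.66 SE, adjusted p = 0.125). Each of these 3 nectary samples was above the adjacent sample of its own number, and with the block the adjusted p was 0.0344. The values were 47.8, 58.5 and 109 in the pre-secretory circumbracteal nectary, against 82.2, 93.1 and 38.6 in the adjacent tissue, which overlap. They were 239, 229.5 and 257 in the post-secretory circumbracteal nectary, against 116, 104 and 164 in the adjacent tissue, which do not. In leaves they were 168 and 473 in the pre-secretory foliar nectary, against 111 and 157 in the adjacent tissue. At the foliar secretory stage the single nectary sample had 990.2, against 389.8 in the adjacent tissue. After secretion the values were 830.0, 926 and 1200.1 in the post-secretory foliar nectary, against 671, 1083 and 1644 in the adjacent tissue, which overlap and are among the highest of the row. In the order of the 20 conditions by mean, from adjacent tissue of the post-secretory foliar nectary down to that of the pre-secretory floral nectary, 17 of the 19 neighbouring conditions overlapped. The gaps lay below the pre-secretory bracteal nectary and below the post-secretory floral nectary, which leaves post-secretory and pre-secretory floral adjacent tissue as the lowest pair.

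Outside the flower the other NIA2 rows had another order. XP_016741993.1 (LOC107951439) and XP_016693542.1 were lower in the nectary than in the adjacent tissue without overlap at both replicated foliar stages and in the post-secretory circumbracteal nectary, and none of these differences was called. After secretion XP_016741993.1 had 320.3, 410.5 and 514 in the post-secretory foliar nectary, against 1002, 1363 and 1931 in the adjacent tissue. XP_016693542.1 had 127, 168 and 126 in the post-secretory foliar nectary, against 397, 673 and 1037 in the adjacent tissue. So all 3 nectary samples lay below all 3 adjacent samples in both rows, while XP_016707751.1 overlapped there. In flowers XP_016693542.1 had 10.2 and 14.2 in the pre-secretory floral nectary, against 0, 0.931 and 0 in the adjacent tissue (log2 change 3.39 ± 1.15 SE, adjusted p = 0.0613). It was apart there and not called at the main settings. With replicate number as a block it was called higher there (3.36, limma adjusted p = 0.0226) and in the post-secretory floral nectary (3.13, adjusted p = 0.0229). With the block it was lower in the pre-secretory circumbracteal nectary (-2.86, adjusted p = 0.0273). XP_016741993.1 was also called higher with the block in the pre-secretory floral nectary (2.86, limma adjusted p = 0.0375).

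Nitrite reductase differed less between tissues. Its single row, NIR1 XP_016675019.1, had normalized values of 190.2 and 105 in the pre-secretory floral nectary, against 104, 83.8 and 117 in the adjacent tissue. It had 328, 627 and 288 in the secretory floral nectary, against 379, 181 and 197 in the adjacent tissue. It had 560.2, 431 and 193 in the post-secretory floral nectary, against 180.2, 172 and 70.0 in the adjacent tissue. The pre-secretory and secretory values overlapped and the post-secretory ones did not, since the lowest nectary sample lay just above the highest adjacent one. The last difference was called (log2 change 1.47 ± 0.44 SE, adjusted p = 0.0498, lost with no filter, with median-of-ratios scaling and with both groups fitted alone), and the call was lost without nectary replicates 1 (1.15) and 2 (1.34) or adjacent tissue replicates 1 (1.71), 2 (1.67) and 3 (1.03).

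Outside the flower NIR1 XP_016675019.1 was not called. The normalized values were 431 and 752 in the pre-secretory bracteal nectary, against 417 and 668 in the adjacent tissue. They were 251, 617 and 492 in the post-secretory bracteal nectary, against 692, 725 and 1042 in the adjacent tissue. They overlapped before secretion and were lower in the bracteal nectary after it. The values were 381, 213 and 467 in the pre-secretory circumbracteal nectary, against 599.9, 258 and 658 in the adjacent tissue. They were 307, 400.1 and 348 in the post-secretory circumbracteal nectary, against 525, 708 and 608 in the adjacent tissue. The circumbracteal nectary thus overlapped its adjacent tissue before secretion and lay below it after. In leaves the values were 517 and 494 in the pre-secretory foliar nectary, against 552 and 335 in the adjacent tissue. The secretory foliar nectary had 363, against 434 in its adjacent tissue. After secretion they were 366, 412 and 239.7 in the post-secretory foliar nectary, against 419.7, 1116 and 462 in the adjacent tissue. All 3 extrafloral types were below their adjacent tissue without overlap after secretion, and none of these differences was called. Over the 20 conditions all 19 neighbours in the order of means overlapped, from bracteal adjacent tissue after secretion, the highest, to floral adjacent tissue before it, the lowest.

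**Figure D2:**
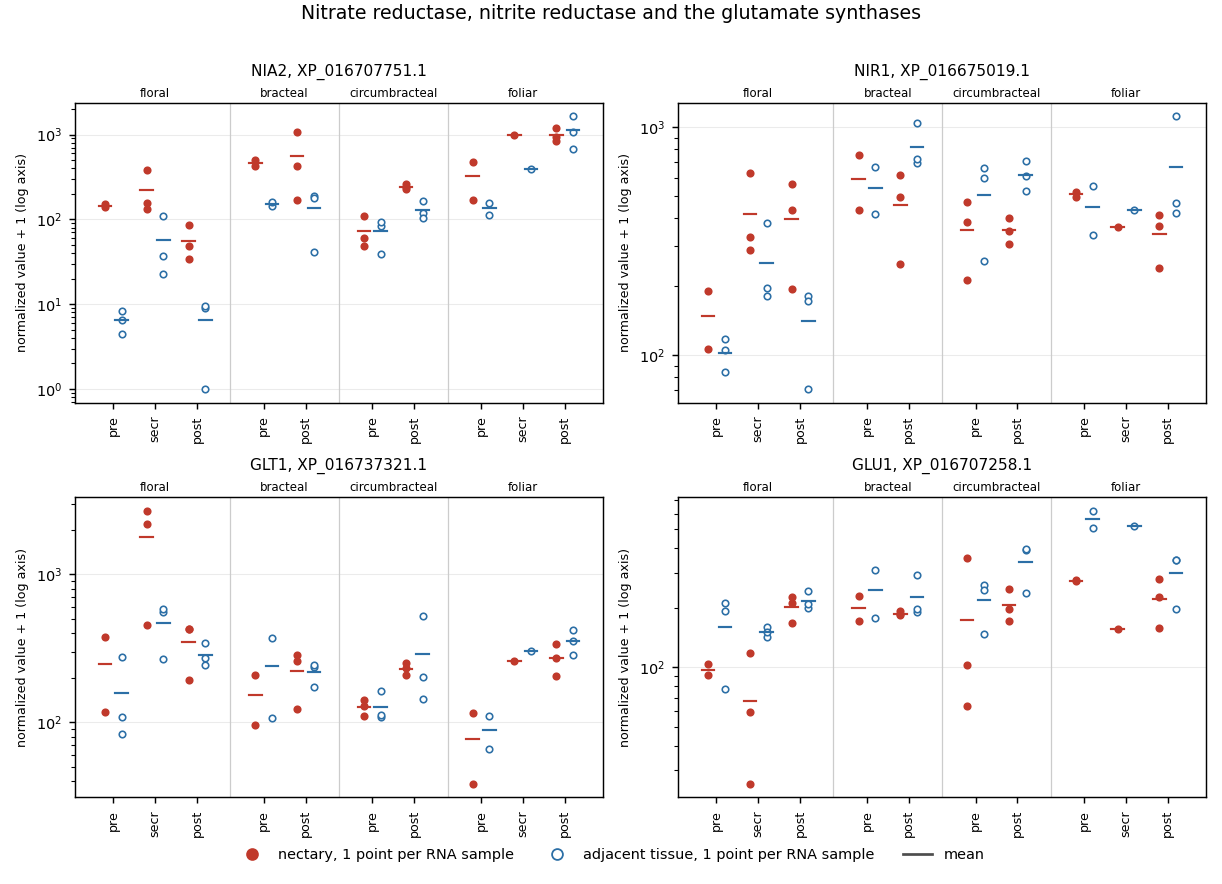
Normalized value (log axis) of the most abundant row of nitrate reductase, nitrite reductase, ferredoxin-dependent and NADH-dependent glutamate synthase in every RNA sample, with each nectary left of its adjacent tissue. Points are RNA samples and bars are group means. The nitrate reductase row is higher in the floral nectary than beside it at all 3 stages, and the NADH-dependent glutamate synthase row is highest in 2 of the 3 secretory floral nectary samples.

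Cytosolic glutamine synthetase was carried by 3 abundant GLN1;1 rows, each of which was higher in some nectaries. The most abundant, XP_016679913.1, was highest relative to adjacent tissue in the secretory floral nectary. Its normalized values were 1491 and 832 in the pre-secretory floral nectary, against 1137, 909 and 418 in the adjacent tissue. They were 2617, 2834 and 2584 in the secretory floral nectary, against 795, 903 and 781 in the adjacent tissue. They were 882, 1351 and 971 in the post-secretory floral nectary, against 891, 1565 and 1057 in the adjacent tissue. The groups were apart only at the secretory stage, where every nectary sample lay far above every adjacent one (log2 change 1.70 ± 0.34 SE, adjusted p = 0.000918). That call held whichever single RNA sample was left out.

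In extrafloral nectaries GLN1;1 XP_016679913.1 was above the adjacent tissue without overlap in 5 of the 6 replicated comparisons, and limma called none of them at the main settings. With replicate number as a block it was called higher in the post-secretory bracteal nectary (limma adjusted p = 0.016). The block also called it higher in the pre- and post-secretory circumbracteal nectary (limma adjusted p = 0.0168 and 0.0236). The normalized values were 2906 and 3117 in the pre-secretory bracteal nectary, against 922 and 1879 in the adjacent tissue. They were 3114, 1663 and 2023 in the post-secretory bracteal nectary, against 1110.5, 735 and 1175 in the adjacent tissue (log2 change 1.15 ± 0.34 SE, adjusted p = 0.0645). They were 3197, 3203 and 2393 in the pre-secretory circumbracteal nectary, against 1913, 927 and 1574 in the adjacent tissue (log2 change 1.04 ± 0.34 SE, adjusted p = 0.056). All these nectary samples lay above all of their adjacent samples. They were 2284, 2149.6 and 2291 in the post-secretory circumbracteal nectary, against 1028, 819.9 and 1675 in the adjacent tissue. They were 6087 and 3675 in the pre-secretory foliar nectary, against 3584 and 2242 in the adjacent tissue. The secretory foliar nectary had 3517, against 3067 beside it. After secretion the order turned round, with 2788, 3171 and 2153 in the post-secretory foliar nectary, against 4018, 4342 and 4113 in the adjacent tissue. Of the 19 neighbours in the order of the 20 conditions, 16 overlapped.

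The row XP_016754058.1 of GLN1;1 was called in 2 nectary types before secretion. It had 1488, 2646 and 2099 in the pre-secretory circumbracteal nectary, against 994, 847 and 919.9 in the adjacent tissue (log2 change 1.14 ± 0.28 SE, adjusted p = 0.00934, lost with both groups fitted alone). It had 1545 and 1472 in the pre-secretory foliar nectary, against 357 and 437 in the adjacent tissue (log2 change 1.93 ± 0.34 SE, adjusted p = 0.00101, lost with both groups fitted alone). Both calls held whichever single RNA sample was left out, and no nectary sample overlapped its adjacent tissue. In the secretory foliar sample the value was 3366, against 619 beside it. In the floral nectary, in contrast, this row overlapped its adjacent tissue before and after secretion and lay below it at anthesis, with 459, 604 and 763 in the nectary, against 793, 839 and 836 (not called).

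The row XP_016745991.1 of GLN1;1 (LOC107954816) was called in the floral nectary. It had 607 and 581 in the pre-secretory floral nectary, against 71.2, 67.0 and 191 in the adjacent tissue (log2 change 2.60 ± 0.48 SE, adjusted p = 0.000289, lost with both groups fitted alone). It had 432, 504 and 309 in the secretory floral nectary, against 152, 175 and 121 in the adjacent tissue (log2 change 1.46 ± 0.43 SE, adjusted p = 0.0259). Both stages were apart, the first call held whichever single RNA sample was left out, and the second was lost without nectary replicates 1 (1.41) and 2 (1.30) or adjacent tissue replicates 1 (1.48), 2 (1.58) and 3 (1.31). Its nectary samples lay above the adjacent ones without overlap in every comparison except the post-secretory foliar one. The highest normalized values were those of the post-secretory bracteal nectary, 4802, 3564 and 4388, against 1262, 1604 and 2499 in the adjacent tissue (log2 change 1.30 ± 0.43 SE, adjusted p = 0.112).

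The other 3 GLN1;1 rows were scarce. XP_016737511.1 (LOC107947371) had its highest normalized values in adjacent tissue of the post-secretory foliar nectary, with 24.3, 56.5 and 43.9 in the nectary, against 209.9, 201 and 189. In the post-secretory circumbracteal nectary it was listed at 0 in all 3 samples, against 3.32, 15.7 and 24.6 in the adjacent tissue. It was called lower there (adjusted p = 0.0227, lost with a pseudocount of 10 and with both groups fitted alone), and the call was lost without nectary replicates 1 and 2 or adjacent tissue replicates 2 and 3. XP_016704023.1 (LOC107918985), listed at 0 in 27 of 51 RNA samples, had 12.2, 27.9 and 17.9 in the pre-secretory circumbracteal nectary, against 12.9, 0 and 0 in the adjacent tissue (log2 change 3.01 ± 0.79 SE, adjusted p = 0.0145, lost with both groups fitted alone). These groups overlapped at the first adjacent sample, and the call was lost without adjacent tissue replicates 2 (2.38) and 3 (2.38), and moved without adjacent tissue replicate 1 (4.27). XP_016696747.1 (LOC107912890), at 0 in 30 RNA samples, was called in no comparison with adjacent tissue at the main settings. With replicate number as a block it was called higher in the pre-secretory bracteal nectary (log2 change 3.105, limma adjusted p = 0.0204). Its values did not pass 15.0.

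**Figure D3:**
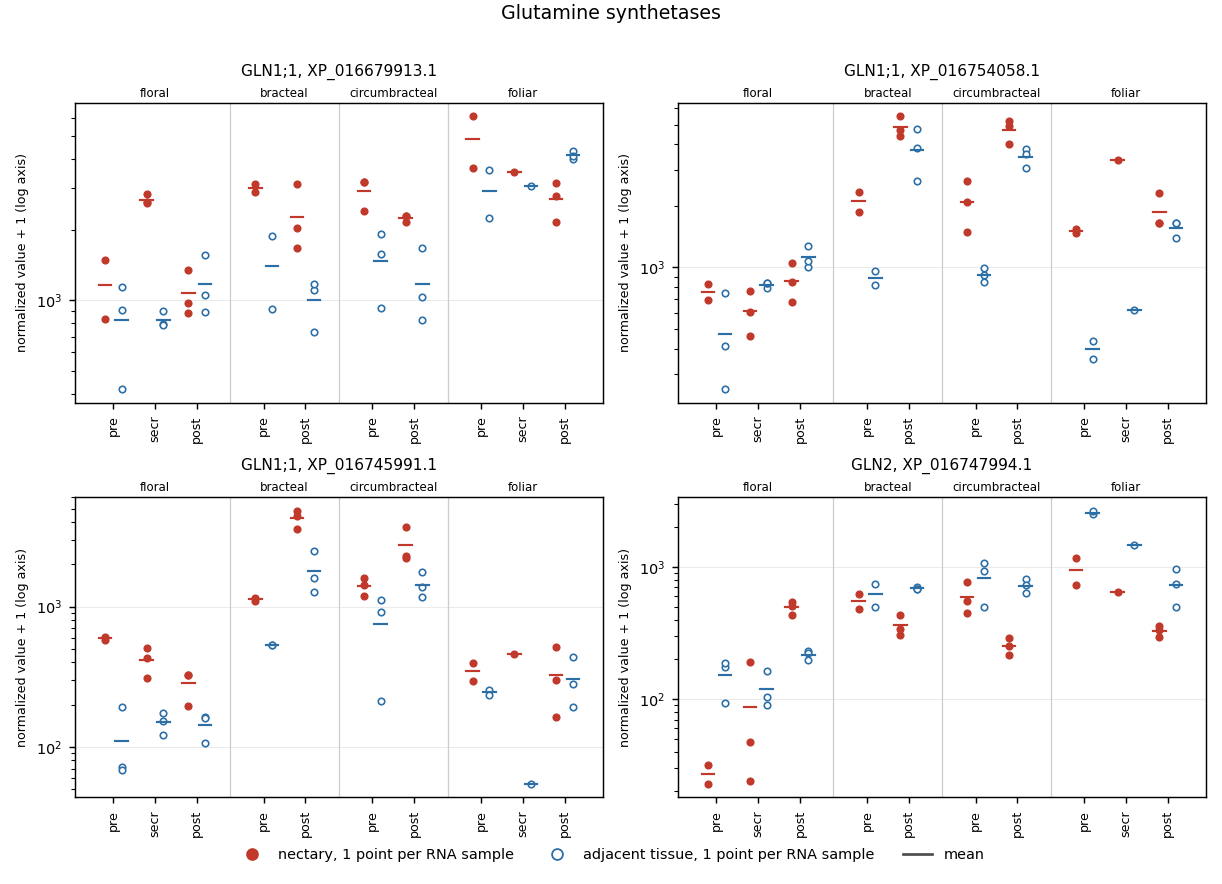
Normalized value (log axis) of the 3 abundant GLN1;1 rows and the most abundant GLN2 row in every RNA sample, with each nectary left of its adjacent tissue. Points are RNA samples and bars are group means. GLN1;1 points of the nectary lie mostly above those of the adjacent tissue. Points of the GLN2 row lie mostly below, except in the post-secretory floral nectary.

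Plastid glutamine synthetase ran the other way in the floral nectary before secretion. The most abundant GLN2 row, XP_016747994.1 (LOC107957078), had normalized values of 30.7 and 21.8 in the pre-secretory floral nectary, against 173, 93.1 and 187 in the adjacent tissue (log2 change -2.44 ± 0.46 SE, adjusted p = 0.000334, lost with both groups fitted alone). All nectary samples were lower, and the call held whichever single RNA sample was left out. At anthesis the row had 46.5, 22.8 and 191 in the secretory floral nectary, against 102, 163 and 89.5 in the adjacent tissue, which overlap through replicate 3. On the day after it had 543, 504 and 435 in the post-secretory floral nectary, against 198, 228 and 223 in the adjacent tissue (log2 change 1.18 ± 0.41 SE, adjusted p = 0.108). The nectary was then above its adjacent tissue without overlap, and the difference was not called at the main settings. With replicate number as a block it was called (limma adjusted p = 0.0486).

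In extrafloral nectaries GLN2 XP_016747994.1 was below its adjacent tissue in most comparisons. The normalized values were 478 and 621 in the pre-secretory bracteal nectary, against 497 and 746 in the adjacent tissue. They were 435, 306 and 338 in the post-secretory bracteal nectary, against 707, 678 and 678 in the adjacent tissue. They overlapped before secretion and were lower in the bracteal nectary after it. They were 769, 556 and 444 in the pre-secretory circumbracteal nectary, against 926, 498 and 1062 in the adjacent tissue. They were 251, 287 and 213 in the post-secretory circumbracteal nectary, against 808, 631 and 728 in the adjacent tissue (log2 change -1.53 ± 0.41 SE, adjusted p = 0.0184). The post-secretory circumbracteal difference was called, and the call was lost without nectary replicate 1 (-1.53) or adjacent tissue replicates 1 (-1.44) and 3 (-1.52). The values were 1173 and 727 in the pre-secretory foliar nectary, against 2501 and 2652 in the adjacent tissue. The secretory foliar nectary had 649, against 1477 beside it. They were 295, 331 and 355 in the post-secretory foliar nectary, against 499, 741 and 957 in the adjacent tissue. The foliar nectary was lower without overlap at each stage, with no call, and its adjacent tissue before secretion had the highest level of the 20 conditions. In that order 14 of the 19 neighbours overlapped.

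The row XP_016714303.1 of GLN2 (LOC107927707) had 18.4 and 15.2 in the pre-secretory floral nectary, against 91.2, 53.0 and 56.0 in the adjacent tissue (log2 change -1.89 ± 0.61 SE, adjusted p = 0.0461, lost with both groups fitted alone). At anthesis it had 4.56, 1.90 and 42.0 in the secretory floral nectary, against 22.5, 63.4 and 34.0 in the adjacent tissue (log2 change -2.08 ± 0.54 SE, adjusted p = 0.0105, lost with a pseudocount of 10 and with both groups fitted alone). It was lower in the nectary without overlap before secretion and overlapped at anthesis through replicate 3. The first call was lost whichever single RNA sample was left out (log2 change -1.65 to -2.03), and the second was lost without nectary replicates 1 (-1.75) and 2 (-1.28) or adjacent tissue replicate 2 (-1.70), and moved without nectary replicate 3 (-3.23).

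The 2 scarce GLN2 rows were each listed at 0 in 10 RNA samples and were called lower in nectaries. XP_016670596.1 (LOC107890600) had 0, 0 and 5.67 in the secretory floral nectary, against 32.1, 18.9 and 21.5 in the adjacent tissue (log2 change -3.71 ± 0.80 SE, adjusted p = 0.00188, lost with both groups fitted alone). The groups were apart and the call held whichever single RNA sample was left out, with the value moved without nectary replicate 3 (-4.62). In the circumbracteal nectary the row was listed at 0 in all 6 samples of both stages. The adjacent tissue had 23.8, 2.91 and 3.99 before secretion (adjusted p = 0.0183, lost with a pseudocount of 10 and with both groups fitted alone) and 3.32, 16.7 and 17.1 after it (adjusted p = 0.0063, lost with a pseudocount of 10 and with both groups fitted alone). The call before secretion was lost without nectary replicate 3 or adjacent tissue replicate 1, and the one after it held whichever single RNA sample was left out.

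GLN2 XP_016723238.1 (LOC107935182) was listed at 0 in all 3 pre-secretory circumbracteal nectary samples, against 17.8, 8.72 and 7.98 in the adjacent tissue (adjusted p = 0.0173, lost with a pseudocount of 10 and with both groups fitted alone), and this call was lost without nectary replicate 3 or adjacent tissue replicate 1. After secretion it had 1.48, 0 and 3.14 in the post-secretory circumbracteal nectary, against 6.65, 72.5 and 44.9 in the adjacent tissue (log2 change -3.77 ± 0.95 SE, adjusted p = 0.013, lost with both groups fitted alone). That call was lost without nectary replicate 2 (-3.21) or adjacent tissue replicates 2 (-3.11) and 3 (-3.45), and moved without adjacent tissue replicate 1 (-4.74). With replicate number as a block XP_016723238.1 was also called lower in the secretory floral nectary (log2 change -2.64), and XP_016670596.1 was called lower in the post-secretory foliar nectary (-2.58, where the count of member rows called became 2).

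Set against each other within a sample, the plastid and cytosolic rows gave a share that does not depend on the scaling between samples. GLN2 rows made up 1.6 to 1.8% of the summed normalized value of GLN2 and GLN1;1 rows in the pre-secretory floral nectary, against 9.5 to 15.9% in the adjacent tissue. The share was 0.6 to 6.4% in the secretory floral nectary, against 8.6 to 11.5%. In both stages every nectary sample was below every adjacent one. In the post-secretory floral nectary it was 19.2 to 29.1%, against 9.8 to 13.5%, so that the order was the opposite, also without overlap. The share was worked out after the values had been seen and is given as a description with no test. No summand is corrected for length beyond what the deposited values hold.

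In the 3 extrafloral types the GLN2 share was lower in the nectary without overlap at every stage. It was 9.7 to 13.8% in the pre-secretory and 4.7 to 5.7% in the post-secretory bracteal nectary, against 23.9 to 24.2% and 12.4 to 19.4% in the adjacent tissue of these stages. It was 10.0 to 14.9% and 3.0 to 5.5% in the circumbracteal nectary before and after secretion, against 27.3 to 28.4% and 15.5 to 18.6%. In the foliar nectary it was 19.3 to 20.0% before, 12.6% during and 9.0 to 14.7% after secretion, against 51.8 to 62.1%, 41.7% and 15.4 to 25.1% in the adjacent tissue. The narrowest gap was that of the post-secretory foliar nectary.

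Markers of photosynthetic tissue were lower in the nectary without overlap in some of these comparisons and overlapped in others. The 9 rows of LHCB1.3, LHCB2.1 and LHCA1 (3 of the 5 marker genes, with none for RBCS1A or PSBO1) summed to 654 to 947 in the pre-secretory floral nectary, against 695 to 5391 in the adjacent tissue, and to 575 to 4208 in the secretory floral nectary, against 2551 to 3432. They summed to 5516 to 8584 in the post-secretory floral nectary, against 4573 to 5434. The first 2 floral stages thus overlapped, and the sum of the post-secretory floral nectary was above its adjacent tissue, with no marker row called at any of the 3. In the bracteal nectary the sum was 2466 to 2989 before and 1701 to 3655 after secretion, against 1692 to 6126 and 2837 to 6219, which overlap. In the circumbracteal nectary it was 1822 to 4834 before and 2078 to 3673 after secretion, against 5327 to 12290.0 and 5011 to 9478, lower at both stages. In the foliar nectary it was 9387 to 30350.0 before and 2735 to 6763 after secretion, against 34230.0 to 76610.0 and 4067 to 17640.0, lower before secretion and overlapping after it. The GLN2 share did not overlap in any of these comparisons. Of 27 rows of photorespiration genes, 11 and 9 were called lower in the pre- and post-secretory circumbracteal nectary, 4, 4 and 2 at the 3 floral stages and 5 in the post-secretory bracteal nectary. Of all rows, 6.01% and 4.8%, 4.32%, 5.35% and 2.03%, and 1.24% were called lower in these comparisons, in the same order. None was called lower in the pre-secretory bracteal or at either foliar stage, and none was called higher in any of these comparisons. In the pre-secretory bracteal and foliar comparisons only 0.0225% and 0.102% of all rows were called lower. The sum of the 27 rows was 3847 to 4032 in the pre-secretory foliar nectary, against 7831 to 11530 beside it. After secretion it was 2563 to 4133, against 5303 to 7904. It was also lower without overlap in the pre-secretory floral and the post-secretory bracteal and circumbracteal nectaries, and overlapped in the other replicated comparisons. The part of green cells in the GLN2 differences was not tested.

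**Figure D4:**
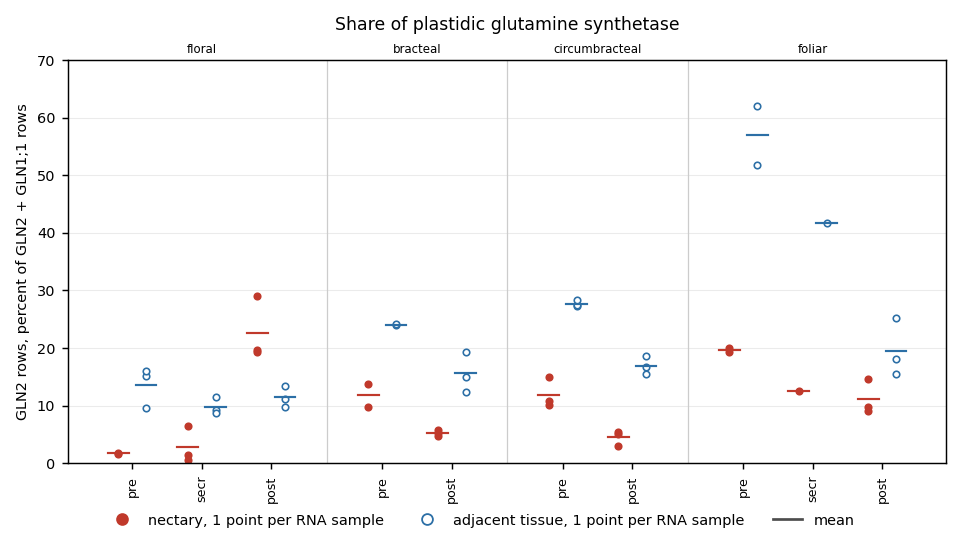
Share (percent) of GLN2 rows in the summed normalized value of GLN2 and GLN1;1 rows in every RNA sample, with each nectary left of its adjacent tissue. Points are RNA samples and bars are group means. The nectary lies below its adjacent tissue in every type and stage except the post-secretory floral nectary, where it lies at 19.2 to 29.1% against 9.8 to 13.5%.

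Of the glutamate synthases, the NADH-dependent enzyme had its highest level in the secretory floral nectary. The 2 GLT1 rows are isoforms of 1 gene (LOC107947250) and are not independent. XP_016737321.1 (isoform X1) had normalized values of 116 and 376 in the pre-secretory floral nectary, against 82.1, 108 and 277 in the adjacent tissue. It had 2673, 2189.7 and 452 in the secretory floral nectary, against 554, 579 and 268 in the adjacent tissue. Replicates 1 and 2 of the secretory nectary were the highest values of the row in the table, whereas replicate 3, which stood apart, lay among the adjacent tissue (log2 change 1.64 ± 0.56 SE, adjusted p = 0.0587). With replicate number as a block the row was called (log2 change 1.65). After secretion it had 426, 429 and 191 in the post-secretory floral nectary, against 271, 344 and 241 in the adjacent tissue, which overlap. XP_016737323.1 (isoform X3) had 1949.7, 1811 and 642 in the secretory floral nectary, against 548, 599 and 355 in the adjacent tissue (log2 change 1.43 ± 0.40 SE, adjusted p = 0.0193, lost with both groups fitted alone). It was apart, and the call was lost without nectary replicates 1 (1.14) and 2 (1.20) or adjacent tissue replicate 3 (1.20).

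In the extrafloral tissues XP_016737321.1 overlapped between nectary and adjacent tissue in every replicated comparison. It had 206 and 95.2 in the pre-secretory bracteal nectary, against 368 and 107 in the adjacent tissue. It had 122, 285 and 259 in the post-secretory bracteal nectary, against 172, 234 and 243 in the adjacent tissue. It had 109, 139.6 and 127 in the pre-secretory circumbracteal nectary, against 107, 161 and 110.3 in the adjacent tissue. Bracteal and circumbracteal levels thus overlapped on both sides. It had 207, 231 and 249 in the post-secretory circumbracteal nectary, against 143, 202 and 519.8 in the adjacent tissue. It had 37.4 and 114 in the pre-secretory foliar nectary, against 65.5 and 109 in the adjacent tissue. After secretion it had 203, 335 and 271 in the post-secretory foliar nectary, against 354, 416 and 283 in the adjacent tissue. The secretory foliar nectary had 259, against 304 beside it. All 19 neighbours in the order of the 20 conditions overlapped, with a low replicate in the highest one.

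Ferredoxin-dependent glutamate synthase was lower in the secretory floral nectary. The most abundant GLU1 row, XP_016707258.1, had 58.4, 24.7 and 117 in the secretory floral nectary, against 159.6, 142 and 150.3 in the adjacent tissue (log2 change -1.42 ± 0.44 SE, adjusted p = 0.0358, lost with both groups fitted alone). The groups were apart, and the call was lost without nectary replicates 1 (-1.46) and 2 (-0.85) or adjacent tissue replicates 1 (-1.38), 2 (-1.47) and 3 (-1.42). At the other floral stages the row had 102 and 90.2 in the pre-secretory floral nectary, against 211, 76.3 and 192 in the adjacent tissue. It had 167, 211 and 227 in the post-secretory floral nectary, against 198, 207 and 242 in the adjacent tissue. Both stages overlapped. It had 170.5 and 227 in the pre-secretory bracteal nectary, against 177 and 311 in the adjacent tissue. It had 191, 183 and 184 in the post-secretory bracteal nectary, against 189, 196 and 293 in the adjacent tissue. These overlapped too. It had 62.4, 101 and 354 in the pre-secretory circumbracteal nectary, against 146, 261 and 246 in the adjacent tissue. It had 248, 171 and 196 in the post-secretory circumbracteal nectary, against 236, 389 and 395 in the adjacent tissue. They overlapped, with pre-secretory nectary replicate 3 far above the other two.

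In leaves GLU1 XP_016707258.1 had 275 and 271 in the pre-secretory foliar nectary, against 617 and 507 in the adjacent tissue. The secretory foliar nectary had 156, against 515 beside it. After secretion it had 157, 279 and 225 in the post-secretory foliar nectary, against 197, 349 and 346 in the adjacent tissue. The pre-secretory foliar nectary was lower without overlap and not called, and its adjacent tissue was the highest of the 20 conditions, 17 of whose 19 neighbours overlapped. XP_016707256.1 and XP_016706845.1, the other GLU1 rows, were called in no comparison at the main settings. With replicate number as a block XP_016707256.1 was called lower in the post-secretory circumbracteal nectary (log2 change -1.95, limma adjusted p = 0.0167). Their nectary samples lay below the adjacent ones without overlap in the pre-secretory bracteal and foliar nectaries, while XP_016706845.1 was above them in the pre-secretory circumbracteal nectary.

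The 7 asparagine synthetase rows differed in the tissue where they were highest. The most abundant, ASN1 XP_016725534.1 (LOC107937167), had its highest normalized values in bracteal and circumbracteal tissue and was not called against adjacent tissue anywhere. It had 5964 and 4773 in the pre-secretory bracteal nectary, against 7172 and 6658 in the adjacent tissue. It had 7345, 4034 and 2938 in the post-secretory bracteal nectary, against 9138, 3829.6 and 2699 in the adjacent tissue. The bracteal nectary was slightly lower before secretion, and replicates spread widely after it. It had 6005, 6729 and 6126 in the pre-secretory circumbracteal nectary, against 6425, 6471 and 9677 in the adjacent tissue. It had 4639.6, 3218 and 2062 in the post-secretory circumbracteal nectary, against 10513, 3186 and 4859 in the adjacent tissue. Both circumbracteal stages overlapped.

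In flowers ASN1 XP_016725534.1 had 665 and 900.2 in the pre-secretory floral nectary, against 1403, 1043 and 1632 in the adjacent tissue. It had 77.5, 193 and 1314 in the secretory floral nectary, against 517, 709.9 and 668 in the adjacent tissue. It had 1796, 1397 and 2641 in the post-secretory floral nectary, against 608, 1437 and 748 in the adjacent tissue. The nectary was below its adjacent tissue before secretion, spread over a wide range at anthesis through replicate 3, and overlapped on the day after. In leaves it had 127 and 87.8 in the pre-secretory foliar nectary, against 122 and 91.4 in the adjacent tissue. The secretory foliar nectary had 193, against 306 beside it. After secretion it had 311, 228 and 227 in the post-secretory foliar nectary, against 265, 572 and 611 in the adjacent tissue. By mean, leaf levels were the lowest of the row. In the order of the 20 conditions 17 of the 19 neighbours overlapped, and the 8 bracteal and circumbracteal conditions came first.

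Other ASN1 rows were higher in the floral nectary. XP_016668862.1 had 585 and 473 in the pre-secretory floral nectary, against 52.9, 69.8 and 197 in the adjacent tissue (log2 change 2.53 ± 0.54 SE, adjusted p = 0.00182, lost with both groups fitted alone). It had 738, 1119 and 865 in the secretory floral nectary, against 140.4, 144 and 258 in the adjacent tissue (log2 change 2.36 ± 0.49 SE, adjusted p = 0.00113). Both stages were apart. The secretory call held whichever single RNA sample was left out, and the pre-secretory call was lost without nectary replicate 1 (2.38). XP_016671935.1 (LOC107891603) had 1794 and 2901 in the pre-secretory floral nectary, against 376, 649 and 619.5 in the adjacent tissue (log2 change 2.10 ± 0.49 SE, adjusted p = 0.00394, lost with both groups fitted alone). It was apart, and the call was lost without nectary replicate 2 (1.75). Outside the flower XP_016671935.1 had 244, 501 and 592 in the post-secretory circumbracteal nectary, against 193, 195 and 82.4 in the adjacent tissue (log2 change 1.51 ± 0.44 SE, adjusted p = 0.0305, lost with both groups fitted alone). This call was lost without nectary replicates 2 (1.38) and 3 (1.25) or adjacent tissue replicate 3 (1.1). Both rows stayed above their adjacent tissue without overlap at all 3 floral stages.

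XP_016734296.1 of ASN1 changed in opposite directions in different nectaries after secretion. It had 815, 1159.9 and 1515 in the post-secretory floral nectary, against 93.1, 355 and 206 in the adjacent tissue (log2 change 2.56 ± 0.58 SE, adjusted p = 0.00569, lost with both groups fitted alone). It had 858, 808 and 931 in the post-secretory circumbracteal nectary, against 5445, 1739 and 3980.1 in the adjacent tissue (log2 change -1.95 ± 0.58 SE, adjusted p = 0.0369, lost with both groups fitted alone). The groups were apart in both, higher in the floral and lower in the circumbracteal nectary. The floral call was lost without adjacent tissue replicate 1 (2.06), and the circumbracteal call was lost without nectary replicates 1 (-1.95) and 2 (-1.91) or adjacent tissue replicates 1 (-1.60) and 3 (-1.83). The deposited description of this row is a partial protein.

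XP_016745159.1 of ASN1 (LOC107954183) had 24.5, 2.66 and 0 in the pre-secretory circumbracteal nectary, against 14.8, 53.3 and 195 in the adjacent tissue (log2 change -3.61 ± 0.95 SE, adjusted p = 0.0154, lost with a pseudocount of 10 and with both groups fitted alone). These groups overlapped, and the call was lost without nectary replicate 3 (-2.52) or adjacent tissue replicate 3 (-2.69), and moved without nectary replicate 1 (-4.85) or adjacent tissue replicate 1 (-4.51). In flowers it had 36.5, 25.6 and 1169 in the secretory floral nectary, against 1037, 401 and 602 in the adjacent tissue. Replicates 1 and 2 lay below all adjacent samples and replicate 3 above them, and the row was called lower only with replicate number as a block (log2 change -2.58). XP_016729837.1 of ASN1 (LOC107940886) had 0, 0 and 7.32 in the post-secretory circumbracteal nectary, against 12.2, 11.8 and 61.0 in the adjacent tissue (log2 change -3.43 ± 0.96 SE, adjusted p = 0.0257, lost with a pseudocount of 10 and with both groups fitted alone). They were apart, and the call was lost without nectary replicates 1 (-2.92) and 2 (-2.92) or adjacent tissue replicate 3 (-2.68), and moved without nectary replicate 3 (-4.45).

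The least abundant ASN1 row, XP_016689170.1 (LOC107906633), was listed at 0 in 24 of 51 RNA samples and was called higher in 4 nectary comparisons. It had 3.65, 7.60 and 5.67 in the secretory floral nectary, against 0, 0 and 0 in the adjacent tissue (adjusted p = 0.0337, lost with a pseudocount of 10). It had 6.12, 14.6 and 48.3 in the pre-secretory circumbracteal nectary, against 0.990, 4.85 and 0 in the adjacent tissue (log2 change 2.96 ± 0.83 SE, adjusted p = 0.022, lost with both groups fitted alone). It had 18.3 and 29.8 in the pre-secretory foliar nectary, against 0 and 0 in the adjacent tissue (adjusted p = 0.0131, lost with both groups fitted alone). Every nectary sample was above every adjacent one in these. It had 3.35, 24.9 and 19.3 in the post-secretory foliar nectary, against 0, 1.76 and 0 in the adjacent tissue (log2 change 3.23 ± 0.83 SE, adjusted p = 0.0235, lost with both groups fitted alone). This was apart as well, and in the secretory foliar nectary the value was 13.9, against 0. No call held under every omission. The secretory floral call was lost whichever single RNA sample was left out, the circumbracteal call was lost without nectary replicate 3 (2.22) or adjacent tissue replicates 1 (2.87) and 3 (2.37), and moved without nectary replicate 1 (3.62) or adjacent tissue replicate 2 (3.64), the pre-secretory foliar call was lost whichever single RNA sample was left out, and the post-secretory foliar call was lost without nectary replicates 2 (2.75) and 3 (2.92) or adjacent tissue replicates 1 (2.99) and 3 (2.99), and moved without nectary replicate 1 (4.03). Most of these values lie near the filter on low values, which asked for 10 in at least 2 RNA samples.

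**Figure D5:**
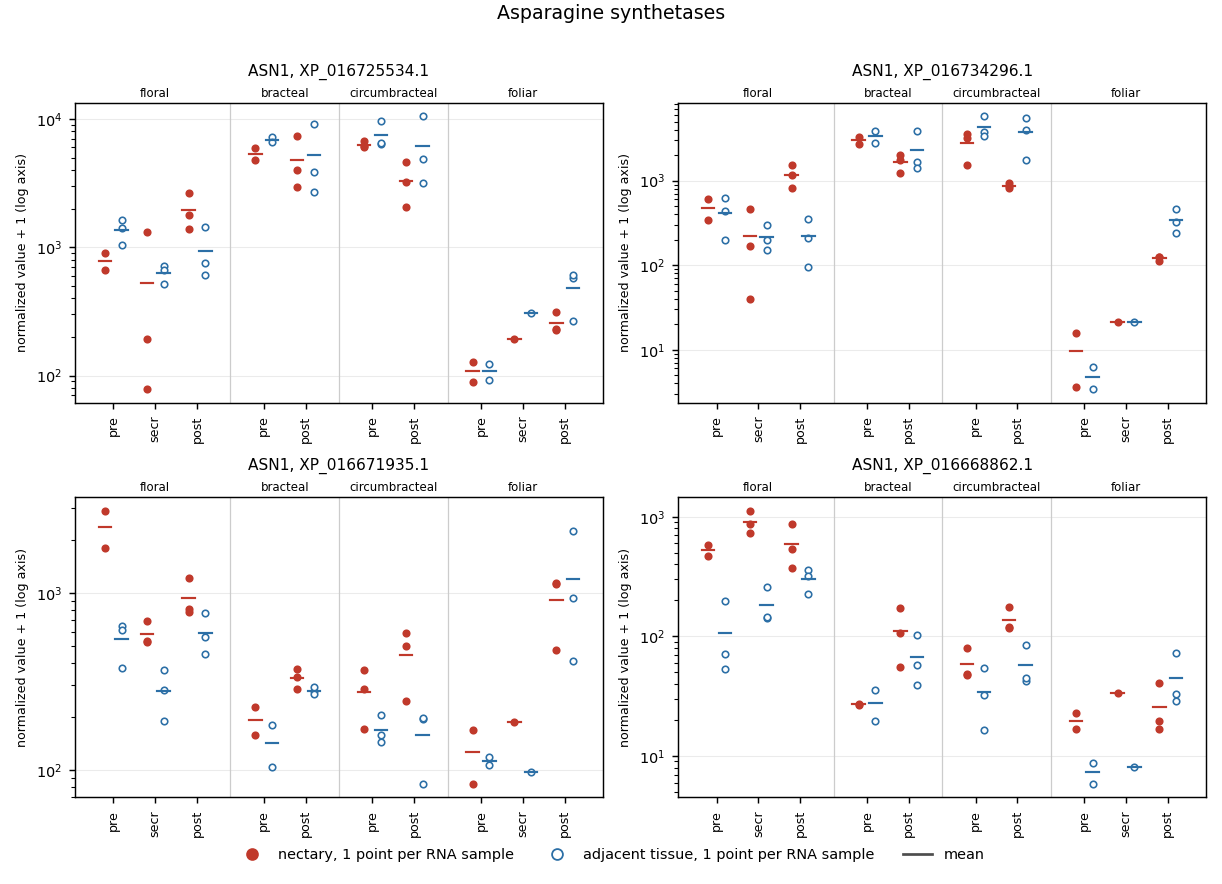
Normalized value (log axis) of ASN1 rows XP_016725534.1, XP_016734296.1, XP_016671935.1 and XP_016668862.1 in every RNA sample, with each nectary left of its adjacent tissue. Points are RNA samples and bars are group means. The most abundant row is highest in bracteal and circumbracteal tissue on both sides, while other rows lie higher in the floral nectary than beside it.

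Between floral stages, NADH-dependent glutamate synthase was highest at anthesis and plastid glutamine synthetase on the day after. Of the member rows 3 were higher and 1 lower in the secretory than in the pre-secretory floral nectary, where 2.48% of all rows were called higher and 2.22% lower, 4.7% together. GLT1 XP_016737321.1 had the largest rise, with 2673, 2189.7 and 452 in the secretory floral nectary, against 116 and 376 in the pre-secretory one (log2 change 2.72 ± 0.62 SE, adjusted p = 0.00502). The groups were apart, and the call was lost without secretory nectary replicate 1 (2.25) or pre-secretory nectary replicate 1 (1.88), and moved without secretory nectary replicate 3 (3.53) or pre-secretory nectary replicate 2 (3.57). ASN1 XP_016671935.1 had the fall, with 535, 525 and 695 in the secretory floral nectary, against 1794 and 2901 in the pre-secretory one (log2 change -1.97 ± 0.49 SE, adjusted p = 0.0104). They were apart too, and the call was lost without pre-secretory nectary replicate 2 (-1.63). The other rises (log2 change) were GLT1 XP_016737323.1 (2.53, lost without pre-secretory nectary replicate 1 (1.98)) and GLN1;1 XP_016679913.1 (1.26, lost whichever single RNA sample was left out (log2 change 0.84 to 1.68)). The count of 4 became 1 without pre-secretory nectary replicate 1, 2 without pre-secretory nectary replicate 2 or secretory nectary replicate 1. A fit of these groups alone called 0.651% of all rows, and none of the 4 member calls stayed.

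On the day after anthesis 6 member rows were higher and 3 lower than at anthesis (all rows: 2.39% higher, 1.51% lower, 3.91% together), a count of 9 that became 3 without secretory nectary replicate 1, 4 without secretory nectary replicate 2 or post-secretory nectary replicate 3. GLN2 XP_016714303.1 had the largest rise, with 172, 86.5 and 122 in the post-secretory floral nectary, against 4.56, 1.90 and 42.0 in the secretory one (log2 change 3.80 ± 0.54 SE, adjusted p = 4.44e-05). The groups were apart and the call held whichever single RNA sample was left out, though the value moved without secretory nectary replicates 2 (2.99) and 3 (4.94). GLN2 XP_016747994.1 (log2 change 3.04 ± 0.41 SE, adjusted p = 1.73e-05) likewise rose under every omission, though the value moved without secretory nectary replicates 2 (2.37) and 3 (3.87). GLT1 XP_016737321.1 had the largest fall, with 426, 429 and 191 in the post-secretory floral nectary, against 2673, 2189.7 and 452 in the secretory one (log2 change -2.08 ± 0.56 SE, adjusted p = 0.0239). It was apart, and the call was lost without post-secretory nectary replicates 1 (-2.27) and 3 (-1.69) or secretory nectary replicates 1 (-1.60) and 2 (-1.75), and moved without secretory nectary replicate 3 (-2.88). The other rises (log2 change) were GLU1 XP_016707258.1 (1.83, lost without post-secretory nectary replicate 3 (1.74) or secretory nectary replicate 2 (1.26)) and ASN1 XP_016725534.1 (2.79, lost without secretory nectary replicate 1 (1.90), and moved without secretory nectary replicate 3 (3.93)), XP_016734296.1 (2.94, lost without secretory nectary replicate 1 (2.01), and moved without secretory nectary replicate 3 (3.77)) and XP_016745159.1 (3.32, lost without post-secretory nectary replicates 1 (3.40), 2 (3.42) and 3 (3.15) or secretory nectary replicates 1 (2.58) and 2 (2.33), and moved without secretory nectary replicate 3 (5.06), lost with the replicate block). The other falls were GLT1 XP_016737323.1 (-1.80, lost without post-secretory nectary replicate 3 (-1.60) or secretory nectary replicates 1 (-1.52) and 2 (-1.57)) and GLN1;1 XP_016679913.1 (-1.35, lost without post-secretory nectary replicates 1 (-1.22) and 3 (-1.29) or secretory nectary replicates 1 (-1.36) and 2 (-1.31)). A fit of these groups alone called 0.0532% of all rows, and none of the 9 member calls stayed.

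Compared with the day before anthesis, 3 member rows were higher on the day after and none was lower (all rows: 4.3% higher, 3.06% lower, 7.37% together), and all 3 held whichever single RNA sample was left out. ASN1 XP_016745159.1 had 950.1, 917 and 1335 in the post-secretory floral nectary, against 11.2 and 25.6 in the pre-secretory one (log2 change 5.87 ± 1.06 SE, adjusted p = 0.00025). GLN2 XP_016747994.1 had 543, 504 and 435 in the post-secretory floral nectary, against 30.7 and 21.8 in the pre-secretory one (log2 change 4.20 ± 0.46 SE, adjusted p = 4.45e-08). GLN2 XP_016714303.1 had 172, 86.5 and 122 in the post-secretory floral nectary, against 18.4 and 15.2 in the pre-secretory one (log2 change 2.80 ± 0.61 SE, adjusted p = 0.00212). Every post-secretory sample was above every pre-secretory one in these rows. A fit of these groups alone called 3.13% of all rows, and all 3 member calls stayed. Of the 9 rows of photosynthetic markers, 8 were called higher in the same comparison and none lower, and their part in the GLN2 rises was not tested.

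Extrafloral nectaries also differed between stages. The post-secretory bracteal nectary had 3 member rows higher and 3 lower than the pre-secretory one (all rows: 1.39% higher, 3.2% lower, 4.58% together). GLN1;1 XP_016745991.1 had 4802, 3564 and 4388 in the post-secretory bracteal nectary, against 1102 and 1151 in the pre-secretory one (log2 change 1.90 ± 0.48 SE, adjusted p = 0.0136). GLN1;1 XP_016704023.1 had 1.16, 0 and 0 in the post-secretory bracteal nectary, against 25.8 and 11.6 in the pre-secretory one (log2 change -3.83 ± 0.88 SE, adjusted p = 0.00594). Both were apart. The rise was lost without post-secretory nectary replicate 1 (1.81) or pre-secretory nectary replicates 2 (1.87) and 3 (1.94), and the fall was lost without pre-secretory nectary replicate 2 (-3.29). GLN1;1 XP_016754058.1 (1.21, lost without post-secretory nectary replicate 3 (1.12) or pre-secretory nectary replicate 3 (1.05)) and ASN1 XP_016668862.1 (1.89, lost without post-secretory nectary replicates 1 (1.5) and 3 (1.85) or pre-secretory nectary replicates 2 (1.88) and 3 (1.91)) were the other rises (log2 change). The other falls were GLN1;1 XP_016696747.1 (lost without pre-secretory nectary replicate 3) and ASN1 XP_016689170.1 (lost without post-secretory nectary replicates 1, 2 and 3 or pre-secretory nectary replicate 3, lost with a pseudocount of 10), both listed at 0 in all post-secretory samples. No bracteal stage call held under every omission, and the count of 6 became 3 without pre-secretory nectary replicate 2 or post-secretory nectary replicates 1 and 3, 1 without pre-secretory nectary replicate 3. A fit of these groups alone called 1.44% of all rows, and none of the 6 member calls stayed.

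The post-secretory circumbracteal nectary had 3 member rows higher and 5 lower than the pre-secretory one (all rows: 12.4% higher, 10.1% lower, 22.4% together). ASN1 XP_016745159.1 had the largest rise, with 63.5, 96.2 and 53.3 in the post-secretory circumbracteal nectary, against 24.5, 2.66 and 0 in the pre-secretory one (log2 change 3.94 ± 0.95 SE, adjusted p = 0.00226). The call held whichever single RNA sample was left out, and the value moved without pre-secretory nectary replicates 1 (5.19) and 3 (2.85). GLN1;1 XP_016704023.1 was listed at 0 in all 3 post-secretory samples, against 12.2, 27.9 and 17.9 in the pre-secretory ones (adjusted p = 0.000103), a call that held under the same omissions. GLN1;1 XP_016754058.1 had 5226, 4022 and 4894 in the post-secretory circumbracteal nectary, against 1488, 2646 and 2099 in the pre-secretory one (log2 change 1.21 ± 0.28 SE, adjusted p = 0.00149), also apart and held under these omissions. The other rise (log2 change) was NIA2 XP_016707751.1 (1.83, lost without post-secretory nectary replicates 1 (1.83), 2 (1.86) and 3 (1.78) or pre-secretory nectary replicates 1 (1.58) and 2 (1.73), lost with median-of-ratios scaling). The other falls were GLN2 XP_016747994.1 (-1.21, lost without post-secretory nectary replicates 1 (-1.21) and 3 (-1.09) or pre-secretory nectary replicate 1 (-0.99)) and ASN1 XP_016734296.1 (-1.58, lost without post-secretory nectary replicates 1 (-1.58), 2 (-1.54) and 3 (-1.64) or pre-secretory nectary replicates 1 (-1.43) and 2 (-1.35)), XP_016729837.1 (-3.13, lost without post-secretory nectary replicates 1 (-2.62) and 2 (-2.62) or pre-secretory nectary replicate 3 (-1.96), and moved without post-secretory nectary replicate 3 (-4.15) or pre-secretory nectary replicate 2 (-4.27), lost with a pseudocount of 10) and XP_016689170.1 (-2.69, lost without post-secretory nectary replicate 2 (-1.96) or pre-secretory nectary replicate 3 (-1.94), and moved without post-secretory nectary replicate 3 (-3.49) or pre-secretory nectary replicate 1 (-3.34)), and the count of 8 became 4 without post-secretory nectary replicates 1 and 2, 5 without post-secretory nectary replicate 3. A fit of these groups alone called 2.38% of all rows, and 1 of the 8 member calls stayed, that of GLN1;1 XP_016704023.1. The pre-secretory circumbracteal nectary samples had from 30965 to 39511 rows above 0 and a spread 1.58 times the pooled one, and the part of this in the circumbracteal stage calls was not tested.

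The post-secretory foliar nectary had 4 member rows higher and 1 lower than the pre-secretory one (all rows: 3.7% higher, 8.56% lower, 12.3% together). ASN1 XP_016734296.1 had 125, 112 and 123 in the post-secretory foliar nectary, against 2.61 and 14.9 in the pre-secretory one (log2 change 3.99 ± 0.65 SE, adjusted p = 4.62e-05). ASN1 XP_016671935.1 had 1120.0, 1139 and 476 in the post-secretory foliar nectary, against 167 and 82.5 in the pre-secretory one (log2 change 2.84 ± 0.49 SE, adjusted p = 8.66e-05). Both were apart and held whichever single RNA sample was left out, while the first moved without pre-secretory nectary replicates 1 (2.92) and 2 (5.07). GLN2 XP_016747994.1 was the fall, with 295, 331 and 355 in the post-secretory foliar nectary, against 1173 and 727 in the pre-secretory one (log2 change -1.5 ± 0.46 SE, adjusted p = 0.0242). It was apart, and the call was lost without post-secretory nectary replicates 1 (-1.43) and 2 (-1.51) or pre-secretory nectary replicate 1 (-1.16). The other rises (log2 change) were the GLT1 isoforms XP_016737323.1 (1.49, lost without post-secretory nectary replicates 2 (1.41) and 3 (1.44) or pre-secretory nectary replicate 1 (1.12)) and XP_016737321.1 (2.00, lost without post-secretory nectary replicates 2 (1.82) and 3 (1.98) or pre-secretory nectary replicate 1 (1.20), and moved without pre-secretory nectary replicate 2 (2.79)). The count of 5 became 2 without pre-secretory nectary replicate 1 or post-secretory nectary replicate 2, 3 without post-secretory nectary replicate 3. A fit of these groups alone called 15.5% of all rows, and 4 of the 5 member calls stayed, without that of GLT1 XP_016737321.1.

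The change from before to after secretion in the nectary was also tested against that in the adjacent tissue, as a contrast in the same fit. In flowers 1 member row was called (all rows: 0.199% higher, 0.174% lower, 0.373% together). GLN2 XP_016747994.1 rose by 3.62 ± 0.61 SE more on the log2 scale in the floral nectary than in the tissue beside it (adjusted p = 0.00147). The call held whichever of the 11 RNA samples was left out and with the 4 groups fitted alone (0.483% of all rows called). No member row was called in the bracteal (all rows: 0.00409% higher, 0.00614% lower, 0.0102% together), circumbracteal (all rows: 0.565% higher, 0.463% lower, 1.03% together) or foliar contrast (all rows: 0.0143% higher, 0.106% lower, 0.121% together).

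Among post-secretory nectaries, the floral one had lower levels of 2 cytosolic glutamine synthetase rows and 1 nitrate reductase row, and higher levels of 2 asparagine synthetase rows, than each extrafloral type. The 3 comparisons share the floral samples, and an organ's own tissue enters each. Against the bracteal nectary 3 member rows were higher and 4 lower (all rows: 4.35% higher, 3.69% lower, 8.04% together). ASN1 XP_016745159.1 had 950.1, 917 and 1335 in the floral nectary, against 34.9, 32.0 and 84.4 in the bracteal nectary (log2 change 4.50 ± 0.95 SE, adjusted p = 0.00126). GLN1;1 XP_016745991.1 had 195, 326 and 326 in the floral nectary, against 4802, 3564 and 4388 in the bracteal nectary (log2 change -3.93 ± 0.43 SE, adjusted p = 4.89e-08). Both were apart and held whichever single RNA sample was left out. Also called, and held under the same omissions, were GLN1;1 XP_016754058.1 (log2 change -2.52, adjusted p = 6.99e-08), NIA2 XP_016707751.1 (log2 change -3.02, adjusted p = 0.00183, moved without bracteal nectary replicates 1 (-3.69) and 2 (-2.35)) and ASN1 XP_016668862.1 (log2 change 2.47, adjusted p = 0.00056). The remaining calls (log2 change) were GLN1;1 XP_016679913.1 (-1.06, lost without floral nectary replicates 1 (-0.93) and 3 (-1.0) or bracteal nectary replicates 1 (-0.80) and 3 (-1.11), lost with median-of-ratios scaling) and ASN1 XP_016671935.1 (1.48, lost without floral nectary replicate 2 (1.28) or bracteal nectary replicates 1 (1.57), 2 (1.38) and 3 (1.49)). With these groups fitted alone 5.95% of all rows were called, and 4 of the 7 member calls stayed, without those of GLN1;1 XP_016679913.1, ASN1 XP_016668862.1 and NIA2 XP_016707751.1.

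Against the circumbracteal nectary 3 member rows were higher and 4 lower (all rows: 9.4% higher, 4.37% lower, 13.8% together, with a median of all rows of 0.32). ASN1 XP_016729837.1 had 63.3, 29.1 and 55.4 in the floral nectary, against 0, 0 and 7.32 in the circumbracteal nectary (log2 change 4.56 ± 0.96 SE, adjusted p = 0.00109, moved without circumbracteal nectary replicate 3 (5.58)). GLN1;1 XP_016745991.1 had 195, 326 and 326 in the floral nectary, against 3688, 2204 and 2285 in the circumbracteal nectary (log2 change -3.26 ± 0.43 SE, adjusted p = 1.24e-06). Both were apart and held whichever single RNA sample was left out. Also lower (log2 change) were GLN1;1 XP_016754058.1 (-2.47) and XP_016679913.1 (-1.09, lost without floral nectary replicates 1 (-0.97) and 3 (-1.04) or circumbracteal nectary replicates 1 (-1.08) and 2 (-1.12)) and NIA2 XP_016707751.1 (-2.21, lost without floral nectary replicates 2 (-2.17) and 3 (-1.91) or circumbracteal nectary replicates 1 (-2.22) and 2 (-2.25)). ASN1 XP_016668862.1 (2.05) and XP_016745159.1 (3.91) were also higher. With these groups fitted alone 4.79% of all rows were called, and 6 of the 7 member calls stayed, without that of ASN1 XP_016729837.1.

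Against the foliar nectary 4 member rows were higher and 6 lower (all rows: 6.73% higher, 5.49% lower, 12.2% together). ASN1 XP_016668862.1 had 373, 869 and 538 in the floral nectary, against 15.9, 39.9 and 18.4 in the foliar nectary (log2 change 4.56 ± 0.49 SE, adjusted p = 1.24e-08). NIA2 XP_016707751.1 had 83.8, 47.9 and 33.5 in the floral nectary, against 830.0, 926 and 1200.1 in the foliar nectary (log2 change -4.22 ± 0.66 SE, adjusted p = 1.56e-05). Both were apart and held whichever single RNA sample was left out. ASN1 XP_016725534.1 (2.89), XP_016734296.1 (3.22) and XP_016745159.1 (2.90, lost without floral nectary replicates 1 (2.98), 2 (3.00) and 3 (2.73) or foliar nectary replicates 1 (3.05) and 3 (2.28), lost with the replicate block) were also higher (log2 change). GLN1;1 XP_016679913.1 (-1.35) and XP_016754058.1 (-1.12), NIA2 XP_016741993.1 (-3.35, lost without floral nectary replicates 2 (-3.24) and 3 (-2.57) or foliar nectary replicates 2 (-3.35) and 3 (-3.19), and moved without floral nectary replicate 1 (-4.25)) and ASN1 XP_016689170.1 (-2.97, lost without floral nectary replicates 1 (-2.60) and 3 (-2.60) or foliar nectary replicates 2 (-2.48) and 3 (-2.66), and moved without floral nectary replicate 2 (-3.72) or foliar nectary replicate 1 (-3.77)) were also lower, the last with overlap. GLN1;1 XP_016696747.1 was called lower as well and was listed at 0 in all 3 floral samples. With these groups fitted alone 16.2% of all rows were called, and 9 of the 10 member calls stayed, without that of ASN1 XP_016689170.1.

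Around these enzymes, the transporters and amino acid enzymes of the same pathway were counted. Of 71 rows of nitrate and ammonium transporters and nitrate signalling genes, 6 higher and 6 lower were called in the pre-secretory, 8 higher and 4 lower in the secretory and 3 higher and 3 lower in the post-secretory floral nectary relative to adjacent tissue. The medians were 0.48, 0.10 and 0.07 on the log2 scale, beside -0.03, -0.10 and -0.03 for all rows tested. The summed level of the list was nevertheless 3003 to 3214 in the pre-secretory floral nectary, against 5382 to 7248 beside it. It was 4691 to 5333 at anthesis, against 3432 to 3975, and 6358 to 6462 after it, against 4561 to 5843. The sum was also lower without overlap in the pre-secretory bracteal and circumbracteal nectaries, and overlapped in the other replicated extrafloral comparisons. In the post-secretory bracteal, circumbracteal and foliar nectaries the counts were 4 higher and 1 lower, 8 higher and 2 lower and 3 higher and 1 lower. Of all rows, 3.67%, 3.05% and 1.77% were called higher at the 3 floral stages and 4.32%, 5.35% and 2.03% lower. In the post-secretory bracteal, circumbracteal and foliar comparisons 1.28%, 1.61% and 1.18% were called higher and 1.24%, 4.8% and 0.835% lower. The lists give counts and sums only and no test of the list.

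Rows of NRT1.5, which in Arabidopsis loads nitrate into the xylem, were among the rises in most nectaries. At the post-secretory stage in the bracteal type XP_016681686.1 averaged 140.4 ± 28.4 in the nectary and 1.46 ± 2.53 in its adjacent tissue (SD, n = 3 each). At the same stage it averaged in the circumbracteal type 128 ± 32.0 in the nectary and 2.83 ± 3.10 in its adjacent tissue, and in the foliar type 125 ± 47.6 in the nectary and 8.45 ± 9.15 in its adjacent tissue (SD, n = 3 each). In flowers at anthesis another row, XP_016703516.1, averaged 377 ± 165 in the nectary and 16.6 ± 13.3 in its adjacent tissue (SD, n = 3 each), and AMT1;1 XP_016699509.1, an ammonium transporter, 169 ± 99.2 in the nectary and 18.5 ± 1.90 in its adjacent tissue. All of these passed the same limma test (adjusted p of 0.022 or less, Benjamini-Hochberg). NRT1.1 XP_016705675.1, a nitrate transporter and sensor, averaged 457 ± 224 in the nectary and 34.0 ± 22.8 in its adjacent tissue in flowers before secretion (SD, n = 2 and 3, limma adjusted p = 4.45e-05). These rows were picked from the list after their values were seen.

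Of 40 rows of glutamate and asparagine metabolism, 5 higher and 1 lower, 6 higher and 3 lower and 3 higher and 1 lower were called at the 3 floral stages, and 2 higher and 0 lower, 1 higher and 1 lower and 2 higher and 0 lower in the post-secretory bracteal, circumbracteal and foliar nectaries. The shares of all rows called in these comparisons are those given for the transporter list. ASPGB1 XP_016717739.1, an asparaginase that releases the amide nitrogen of asparagine, averaged 332 ± 142 in the nectary and 29.7 ± 16.3 in its adjacent tissue in flowers at anthesis. At the post-secretory stage it averaged in the bracteal type 619 ± 173 in the nectary and 75.5 ± 56.2 in its adjacent tissue, in the circumbracteal type 460.4 ± 53.3 in the nectary and 66.1 ± 54.0 in its adjacent tissue and in the foliar type 369 ± 58.7 in the nectary and 8.90 ± 6.90 in its adjacent tissue (SD, n = 3 each). It was called higher in each of these 4. ASP3 XP_016744744.1, an aspartate aminotransferase, was called higher in the floral nectary at all 3 stages, while GDH3 XP_016680248.1, a glutamate dehydrogenase, was called lower at all 3.

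Of 21 rows that supply reductant and cofactors to the reductases and to GOGAT, 2 higher and 0 lower, 2 higher and 0 lower and 1 higher and 0 lower were called at the floral stages, and none in the post-secretory bracteal, circumbracteal or foliar nectary. Of all rows, 3.67%, 3.05% and 1.77% were called higher at the floral stages. The floral rises of the list were all of FD3, the ferredoxin of non-green plastids. FD3 XP_016739226.1 averaged 2528 ± 185 in the nectary and 796 ± 213 in its adjacent tissue in flowers at anthesis (SD, n = 3 each). Of the 5 further genes of the same enzyme families, ASN3 has rows (3), of which 1 was called lower in the pre-secretory circumbracteal nectary.

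The rows most like 4 of the leading rows over the 20 condition means were found among 20376 rows with a mean of at least 50, by Pearson correlation of log2 values, as a description. For NIA2 XP_016707751.1 they were XP_016716526.1 (r = 0.912), described as like DOWNY MILDEW RESISTANCE 6, XP_016707650.1 (0.859), an F-box/kelch-repeat protein, and XP_016712888.1 (0.856), an ethylene-responsive transcription factor. For NIR1 XP_016675019.1 they were XP_016732293.1 (r = 0.841), an uncharacterized protein, XP_016689986.1 (0.815), a probable sulfate transporter, and XP_016723620.1 (0.801), a two-component response regulator. For GLN2 XP_016747994.1 they were XP_016688776.1 (r = 0.921), a beta tubulin, XP_016669997.1 (0.920), a fasciclin-like arabinogalactan protein, and XP_016746652.1 (0.902), a cysteine-rich repeat secretory protein. For ASN1 XP_016725534.1 they were XP_016688994.1 (r = 0.924) and XP_016689950.1 (0.907), auxin-responsive proteins, and XP_016751272.1 (0.912), a MADS-box protein. All 20 points share the libraries and scaling of the table.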

How the data were processed

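RNA of nectaries and adjacent tissue was sequenced, and 1 table of 49663 predicted cotton proteins by 102 columns (2 runs of each of 51 RNA samples) was used. The deposited values are a signal that the authors made from mapped reads. They are whole numbers. A step of at least 1.25 was found in 7447 of the 33879 rows with at least 10 low values. In these 7447 rows 97.3% of 241036 values held out fell on the step, where chance gives 62.0%. The values were therefore not handled as raw read numbers. Whether they scale with gene length was not tested, and the depth behind 1 value is unknown. How reads were aligned, filtered and scaled for it is not given in the sources used here, since its annotation differs from the one in the study's methods. Secretory bracteal, circumbracteal and further foliar samples were not analysed here.

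Runs were summed (their correlation was at least 0.931). Each RNA sample was scaled to a common upper quartile, and log2(value + 1) of rows with at least 10 in at least 2 RNA samples was fitted with limma 3.58.1 (R 4.3.3), with 1 coefficient per condition and moderated variances with a trend. Fold changes on this scale understate the change of low rows. Adjusted p-values are Benjamini-Hochberg over all 48846 rows of a comparison, and a call needs an adjusted p under 0.05 and at least 1.5-fold. This fit was the planned one, with a test for read numbers in its place if the values turned out to be such numbers. Python 3.11.15 with numpy 2.4.6 and pandas 2.3.3 was used, and the fit was tested on simulated data. Alternatives were a pseudocount of 10, no filter, median-of-ratios scaling, a fit of the compared groups alone, a replicate block and leaving out each RNA sample.

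Samples with the same replicate number deviated together (every correlation over 0.1) in the secretory floral, post-secretory bracteal and post-secretory foliar comparisons, from 0.166 to 0.328. In the pre-secretory bracteal comparison both correlations were 0.28, which with 2 RNA samples per group are not independent. In these 4 comparisons the blocked result is given where it changes a call. In the others the calls that the block added relative to adjacent tissue are named. The same-numbered pair of the pre-secretory foliar comparison gave 0.386. Gene names come from RefSeq (Gossypium_hirsutum_v2.1), which matched 17 of the 26 rows. Every member row is named. Values of every sample are given for the most abundant row of each match and for the row with the largest called rise and fall in each comparison. Members and lists were chosen with earlier results of these data known.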

Additional observations from a re-analysis of the deposited data

Results flagged for a closer look

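The change of GLN2 XP_016747994.1 from the pre-secretory to the post-secretory stage differed between the floral nectary and its adjacent tissue by 3.62 ± 0.61 SE on the log2 scale (adjusted p = 0.00147, limma with Benjamini-Hochberg adjustment). The normalized values were 543, 504 and 435 in the post-secretory floral nectary, against 30.7 and 21.8 in the pre-secretory one. They were 198, 228 and 223 in the post-secretory adjacent tissue, against 173, 93.1 and 187 in the pre-secretory one. Of the 9 photosynthetic marker rows, 8 were called higher in the post-secretory than in the pre-secretory floral nectary, and their part in this difference was not tested.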

How the results depend on the processing

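No called change of a member row changed direction under any alternative. The GLN2 shares, marker sums, orders of conditions and correlations were computed in 1 way. Of the 94 calls of member rows in 572 pairs of row and comparison (53 higher, 41 lower), 38 held whichever single RNA sample was left out and 24 held in every alternative. There were 104 calls with a pseudocount of 10 (84 of them among the 94), 93 with no filter on low values (93), 91 with median-of-ratios scaling (91), 45 in fits of the compared groups alone (34) and 113 with the replicate block (92). Median-of-ratios scaling moved the median of all rows by up to 0.114 and a pseudocount of 10 by up to 0.187 on the log2 scale.

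Counts of called member rows moved by more than 1.5 times as follows. With a pseudocount of 10 there were 3 in the post-secretory bracteal and 3 in the pre-secretory circumbracteal nectary, 4 and 5 in the pre- and post-secretory foliar nectary relative to adjacent tissue, and 9 between foliar stages. Fits of the compared groups alone gave 2, 4 and 1 at the 3 floral stages relative to adjacent tissue, 0 and 1 in the pre- and post-secretory circumbracteal nectary and 0 in the pre-secretory foliar nectary. Between stages they gave 0 for the secretory floral nectary relative to the pre-secretory one and 0 for the post-secretory relative to the secretory one, 0 for the bracteal, 1 for the circumbracteal and 8 for the foliar nectary. Over all 48846 rows these fits called 0 in the pre-secretory circumbracteal and foliar comparisons and 26 for the post-secretory relative to the secretory floral nectary. With the replicate block there were 5 in the post-secretory floral, 1 in the pre-secretory bracteal, 4 in the post-secretory bracteal and 2 in the post-secretory foliar nectary. Where same-numbered samples did not all deviate together, the shared number was not taken as a pairing. In these, correlations of the deviations ran from -0.117 to 0.408, and 6 of 6 samples in the post-secretory floral, 6 of 6 in the pre-secretory and 5 of 6 in the post-secretory circumbracteal comparison were closest to the sample of their own number, a hint from the data and not the design. There the block gave 9 calls in the pre-secretory floral, 9 in the pre-secretory circumbracteal and 10 in the post-secretory circumbracteal nectary. The calls it added in flowers were all higher. They were GLN1;1 XP_016754058.1 and NIA2 XP_016741993.1 and XP_016693542.1 before secretion, and GLN2 XP_016747994.1 and NIA2 XP_016693542.1 after it. In the pre-secretory circumbracteal nectary it added GLN1;1 XP_016679913.1 and XP_016745991.1, higher, and NIA2 XP_016693542.1, lower. In the post-secretory one it added GLN1;1 XP_016679913.1 and ASN1 XP_016668862.1, higher, and GLU1 XP_016707256.1, lower. The block lost no call relative to adjacent tissue.

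Leaving out 1 RNA sample at a time gave 4 to 6, 3 to 14 and 1 to 4 calls at the 3 floral stages relative to adjacent tissue, 0 to 1 at both bracteal stages, 2 to 7 at both circumbracteal stages, 1 in every omission before and 0 to 1 after secretion in the foliar nectary. It gave 1 to 6 for secretory against pre-secretory and 3 to 11 for post-secretory against secretory floral nectary, 1 to 5 between bracteal, 4 to 8 between circumbracteal and 2 to 6 between foliar stages, and 0 to 1 in the circumbracteal contrast of changes. Where 1 sample was left in a group, it was assumed to vary like the others.

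The values were not handled as read numbers, so the limit that depth sets on low rows is not known. GLN1;1 XP_016704023.1 and XP_016696747.1 and ASN1 XP_016689170.1 averaged 3.44, 2.20 and 5.11, below 10, the level the filter asked for. The other scarce rows, GLN1;1 XP_016737511.1 and GLN2 XP_016723238.1 and XP_016670596.1, averaged 24.8, 27.5 and 19.4. Each of these was listed at 0 in 10 RNA samples.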
